A study of Mus musculus with 11 samples.

Results

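Unedited oviductal organoids from Cas9-GFP knock-in mice were compared with unedited oviductal organoids from wild-type C57BL/6 mice, across all genes of the count table. The comparison took 3 libraries against 3, of 27 libraries in the series, and 8323 of 18305 genes held enough reads to be tested. The Cas9-GFP mice were on a B6J.129(B6N) background and carried the Gt(ROSA)26Sor allele tm1(CAG-cas9*,-EGFP)Fezh, in which a cassette for Cas9 and enhanced GFP, joined by a P2A peptide and driven by the CAG promoter in all cell types, was inserted into the ROSA26 locus. The wild-type C57BL/6 mice carried no insert. All donors were adult female mice, both cultures were grown in basement membrane extract with a medium that held WNT and estrogen, and none of the 6 libraries had received a guide RNA. Strain, transgene and organoid line go with the group and cannot be told apart. The labels give each group as 1 sample with 3 columns of counts, so the p-values measure the spread between these libraries, whose separate origin rests on the study's statement of independent replicates.

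The oviduct is the mouse counterpart of the human fallopian tube. Its lining is a single layer of secretory cells, which release oviduct fluid proteins such as oviductal glycoprotein 1, and ciliated cells, which move the fluid. PAX8 marks the secretory lineage and FOXJ1 is the transcription factor that drives the motile cilia programme. Organoids are grown from stem or progenitor cells of this lining as hollow cysts, and the study used the Cas9-GFP organoids as the unedited parents of its mutant clones.

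The Cas9-GFP libraries held 1038141, 600579 and 980992 counts, and the C57BL/6 libraries 2472821, 1455037 and 1768626, so that every Cas9-GFP library was shallower than every C57BL/6 library. On the scale of CPM, counts divided by the library size after scaling, a read was worth 0.868 to 1.62 CPM in the Cas9-GFP libraries and 0.427 to 0.785 CPM in the C57BL/6 libraries. Within the groups, every pair of replicates differed by more than the counting error of independent reads (chi-square per gene 3.97 to 10.6). Duplicate reads, which were not removed, may have a part in this. The mean Euclidean distance on log2 CPM between libraries of different groups was 101 ± 5.74 (SD, n = 9 pairs), against 59.6 ± 8.2 (n = 3 pairs) within the Cas9-GFP libraries and 54.2 ± 4.96 (n = 3 pairs) within the C57BL/6 libraries. The smallest distance between groups, 91.4, was above the largest within a group, 67.6.

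With edgeR's quasi-likelihood test and a Benjamini-Hochberg adjusted p under 0.05, 1079 genes were higher in the Cas9-GFP organoids (13% of the genes tested) and 1110 were lower (13.3%), which is 26.3% in either direction. The median log2 fold change over all genes tested was 0, and the difference was beyond 2-fold for 714 of the higher and 794 of the lower genes. At an unadjusted p under 0.05 the counts were 1597 and 1640. The groups did not overlap for 42.7% of the genes tested, with 1744 higher and 1807 lower in the Cas9-GFP libraries. Separation of the groups for a single gene is to be read against this share. A fit of all 27 libraries with 1 estimate of spread called 373 and 550, and with it the epithelial, extracellular matrix and mitochondrial lists described here had 0 members called lower.

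**Figure D1:**
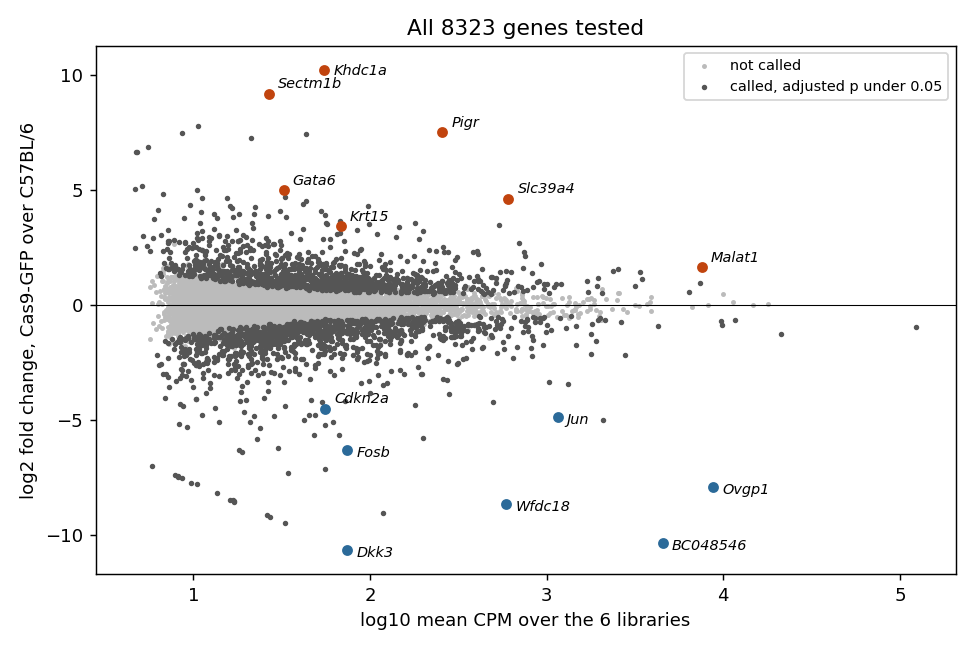
The log2 fold change of Cas9-GFP over C57BL/6 organoids is plotted against the log10 of the mean CPM over the 6 libraries, with a point for each gene tested (grey, not called; dark, called; coloured, 14 genes named in the text). Called genes lie on both sides of 0 at all levels, and Ovgp1 at -7.91 and BC048546 at -10.33 are low at a high mean level. The plotted values of genes with no read in a group, such as Khdc1a, Sectm1b and Dkk3, depend on the prior count of the fit.

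The knock-in locus was examined first. Gt(ROSA)26Sor, the non-coding transcript of the ROSA26 locus on chromosome 6, stood at 13, 12.9 and 6.86 CPM in the Cas9-GFP libraries and at 22.2, 23.6 and 21.8 CPM in the C57BL/6 libraries. The Cas9-GFP libraries were all below the C57BL/6 libraries (log2 fold change -1.05 ± 0.35 SE, adjusted p = 0.0437, edgeR), but the call was lost with DESeq2 (adjusted p = 0.106) and without any single library. The other 6 genes tested from a list of 12 at and around ROSA26, including Setd5 (0.23) and Thumpd3 (-0.35), were not called. The eGFP entry of the count table held 0 reads in all 6 libraries, where 3 reads would be 2.6 to 4.85 CPM in the Cas9-GFP libraries. CEL-Seq2 reads the 3′ ends of transcripts, and the sequence behind the eGFP entry is not given in the sources used here, so that this entry does not check the labels. Within 20 Mb of Gt(ROSA)26Sor, 19 of 106 genes tested were called (17.9%), 8 higher and 11 lower, against 27.6% of 283 on the rest of the chromosome. Among these 19, Atp2b2, a plasma membrane calcium pump gene 0.67 Mb away, had no read in the Cas9-GFP libraries against 61.5, 18.8 and 21.2 CPM, which is at least 6.98-fold lower when 3 reads in the shallowest library are taken as the floor. Ccnd2, which encodes cyclin D2 and lies 14.05 Mb away, stood at 5.21, 1.62 and 2.94 CPM against 94, 58.9 and 209 CPM (log2 fold change -5.06 ± 0.58, adjusted p = 9.37e-05).

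The genes called lower gathered on chromosome 4. Of 506 genes tested there, 246 were called lower in the Cas9-GFP organoids (48.6%) and 15 higher (2.96%), and 445 (87.9%) had a log2 fold change below 0. On the other autosomes and the X chromosome, 853 of 7773 genes were called lower (11%) and 1061 higher (13.6%), and no other chromosome had more than 16.2% called lower. The median log2 fold change of chromosome 4 genes was -0.92, which is 0.529 of the C57BL/6 level, while the medians of the other chromosomes lay between -0.06 and 0.13. The shift ran along the whole chromosome. In each of 8 segments of 20 Mb the median was between -1.33 and -0.8, and 42% to 66.7% of the genes tested were called lower. DNA copy number was not measured in the files used here. The paper counted chromosomes in metaphase spreads and reported normal numbers for wild-type oviductal organoids. It does not say whether the lines counted were those sequenced here, and the cause of the shift was not tested.

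Chromosome 4 genes of high level lay on both sides of this median. Rpl11, a ribosomal protein gene, stood at 390, 466 and 524 CPM in the Cas9-GFP libraries and at 1001, 1002 and 1047 CPM in the C57BL/6 libraries (log2 fold change -1.15 ± 0.17 SE, adjusted p = 0.000521). The groups did not overlap, and the Cas9-GFP level was 2.21-fold lower. Prdx1, a peroxidase, fell by 1.5 on the log2 scale and Cdc42, a small GTPase of cell polarity, by 0.88. Bag1, a chaperone regulator, at a mean of 149 against 153 CPM (-0.04 ± 0.17, adjusted p = 0.881), and Tmem59, at 297 against 275 CPM (0.11 ± 0.2, adjusted p = 0.732), were not called. These 5 genes and the next ones were chosen after their values were seen. Some chromosome 4 genes fell much further than the median. Cdkn2a, which encodes the cell cycle inhibitor p16 and the p53 activator ARF, stood at 5.21, 3.23 and 4.9 CPM against 93.1, 102 and 126 CPM (log2 fold change -4.5 ± 0.31, adjusted p = 2.77e-06), and its neighbour Cdkn2b at 13, 4.85 and 6.86 CPM against 44.4, 89.5 and 117 CPM (-3.22 ± 0.44, adjusted p = 0.000311). The leptin receptor gene Lepr had no read in the Cas9-GFP libraries and 11.1, 29.8 and 21.8 CPM in the C57BL/6 libraries. In the other direction, the peptidylarginine deiminase gene Padi2 stood at 365, 674 and 288 CPM against 95.7, 62.8 and 67.1 CPM (2.53 ± 0.3, adjusted p = 0.000134), so that not every gene of the chromosome was lower.

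**Figure D2:**
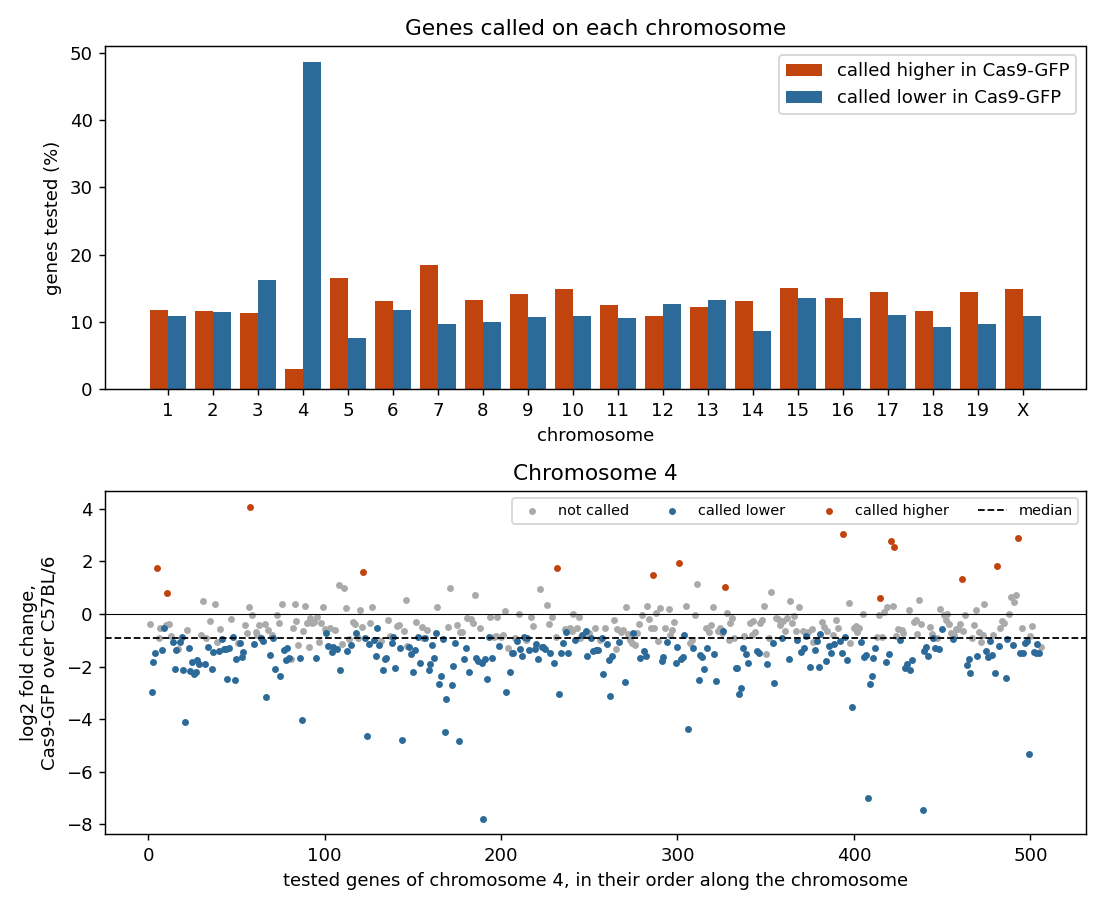
The upper panel shows the percent of genes tested on each chromosome that were called higher or lower in Cas9-GFP organoids, with chromosome 4 at 2.96% higher and 48.6% lower. The lower panel shows the log2 fold change of each of the 506 genes tested on chromosome 4 in their order along it, with the dashed line at the median of -0.92 and low values from one end to the other.

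The level of chromosome 4 was then set beside oviduct tissue in all libraries of the series, as the median over 330 chromosome 4 genes with at least 20 CPM of the log2 difference from the mean of the 3 wild-type oviduct tissue libraries, after subtracting each library's median over all genes. It was -0.9, -0.92 and -0.97 in the 3 Cas9-GFP organoid libraries and -0.09, -0.01 and 0.03 in the 3 C57BL/6 organoid libraries. The groups did not overlap (difference -0.91, two-sided exact permutation p = 0.1, the smallest that 3 against 3 allows), and the medians of the other chromosomes in the Cas9-GFP libraries lay between -0.05 and 0.19. Chromosome 4 was chosen after its shift was seen in these same libraries, so this p-value is not a separate test of the shift. The 3 oviduct-TBP clones, which were edited from Cas9-GFP organoids, stood at -0.93, -0.92 and -0.48, the first of them in a library of 82239 counts. The 4 tumor-derived organoid lines stood between -0.7 and -0.27, and the 6 TBP tumors, which hold host tissue, between -0.5 and -0.24. In these edited libraries other chromosomes departed from oviduct tissue too, and the values of TBP clone 3, with other chromosomes from -0.52 to 0.53, and tumor-derived organoid line 3, from -0.29 to 0.51, lay within the range of their other chromosomes, as did those of 4 of the 6 tumors. Among the other libraries labelled wild-type, the 3 of ovarian surface epithelium (OSE) tissue lay between -0.09 and -0.02, and the 2 OSE organoid libraries at 0 and -0.59. The sources used here do not settle from which mouse strain the OSE lines came. OSE organoid library 2, the one at -0.59, also held oviductal transcripts at levels that library 1 did not, with Ovgp1 at 3243 against 19.1 CPM and BC048546 at 3647 against 16 CPM.

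**Figure D3:**
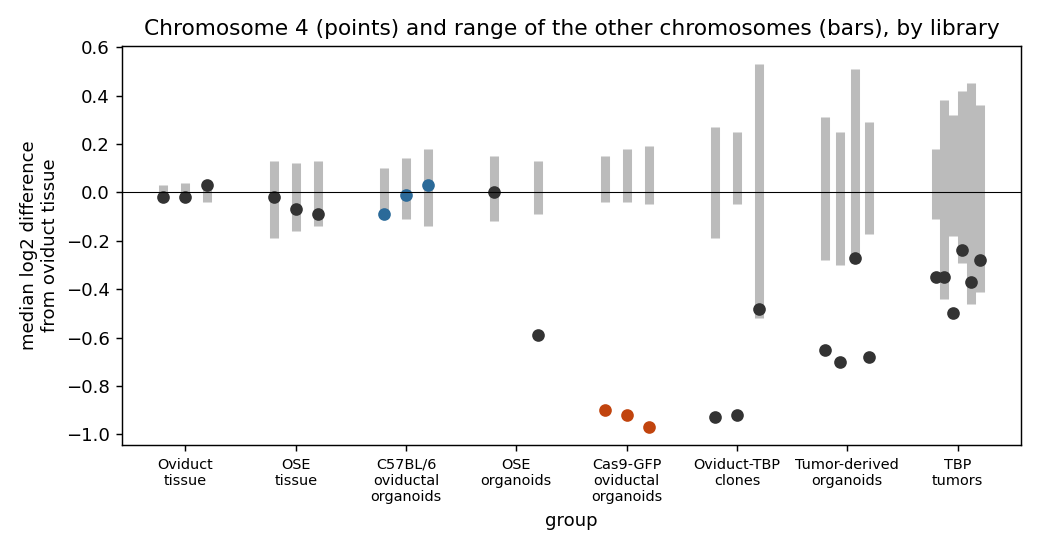
Each point is a library, at the median log2 difference of its chromosome 4 genes from oviduct tissue, and the grey bar is the range of the medians of its other chromosomes. The 3 Cas9-GFP organoid libraries (red) sit between -0.97 and -0.9 and the 3 C57BL/6 organoid libraries (blue) between -0.09 and 0.03.

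Secretory and Müllerian markers were kept in part. Pax8 stood at 142, 131 and 166 CPM in the Cas9-GFP libraries and at 156, 153 and 172 CPM in the C57BL/6 libraries (log2 fold change -0.13 ± 0.18, adjusted p = 0.633), and Emx2, a homeobox gene of the Müllerian duct, differed by 0.08 ± 0.21 (adjusted p = 0.825). Neither gene was called, and the groups overlapped for both. In OSE organoid libraries 1 and 2, on a scale set over the whole series, Pax8 was at 43.5 and 180 CPM and Emx2 at 89.3 and 66.9 CPM. On the same scale the 6 oviductal organoid libraries held Pax8 at 140 to 186 CPM and Emx2 at 57.7 to 78.1 CPM. OSE organoid library 2 also held oviductal transcripts, as given above. In library 1 Pax8 was below all 6 oviductal organoid libraries and Emx2 above all 6. Emx2 therefore does not tell oviductal from OSE organoids, and for Pax8 these libraries do not settle it. Ovgp1, the oviductal glycoprotein of the secretory cells, stood at 71.2, 88.9 and 60.8 CPM against 20552, 18464 and 13486 CPM, which is 240-fold lower in the Cas9-GFP organoids (log2 fold change -7.91 ± 0.28, adjusted p = 1.15e-08). It was called in every alternative analysis. Fewer cells of a type and less RNA per cell cannot be told apart in these bulk libraries. In oviduct tissue Ovgp1 reached 72757 to 114196 CPM on a scale set over the whole series. It was at 69.1 and 50.4 CPM in TBP clones 2 and 3 and at 8.07 to 35.4 CPM in the tumor-derived organoids, and at 65.8 to 118 CPM in OSE tissue. Sox17, a transcription factor of the secretory lineage, was higher in the Cas9-GFP organoids (403, 293 and 395 against 251, 173 and 196 CPM; 0.82 ± 0.2, adjusted p = 0.0102), a call lost without Cas9-GFP library 1 or without C57BL/6 library 2 or 3 (adjusted p = 0.054 to 0.0557). Muc1, a membrane mucin, was higher by 0.93 ± 0.23 (adjusted p = 0.0112). Of 7 secretory and Müllerian markers tested, 2 were called higher (28.6%, against 13% of all genes tested) and 1 lower (14.3%, near the 13.3% of all genes tested). Esr1 (-0.47) and Pgr (-1.07, adjusted p = 0.0689), which encode the estrogen and progesterone receptors, were not called.

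Ciliated cell genes were lower in the Cas9-GFP organoids. Foxj1 stood at 13.9, 1.62 and 31.4 CPM against 48.3, 58.1 and 42.9 CPM (-1.55 ± 0.47, adjusted p = 0.0309). Dynlrb2, a dynein light chain gene, had no read in the Cas9-GFP libraries and 25.6, 102 and 71.3 CPM in the C57BL/6 libraries, which is at least 13.7-fold lower. Tppp3 was lower by 2.57 ± 0.72 (adjusted p = 0.0208) with overlapping groups. The C57BL/6 libraries were all above the Cas9-GFP libraries for Foxj1 and Dynlrb2. These were the 3 ciliated markers tested of 11 in the table, and all 3 were called lower (100%, against 13.3% of all genes tested). They passed the filter on low counts through the C57BL/6 libraries, where they were high. The filter thus largely set their shared direction, which is no separate evidence. The summed CPM of all 11, tested or not, ranged from 3.23 to 49 in the Cas9-GFP libraries and from 107 to 266 in the C57BL/6 libraries. This sum includes the 3 tested markers, so it is no separate evidence either. The calls were few and fragile, since 1 was left without C57BL/6 library 2 and 1 after thinning all libraries to the shallowest, and 2 without C57BL/6 library 3, without Cas9-GFP library 1 or 2, or with DESeq2.

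Among 8 epithelial markers, 1 was called higher (12.5%, near the 13% of all genes tested) and 4 lower (50%, against 13.3%). Epcam (0.24) and Krt7 (-0.2) were not called, at 294 to 493 CPM and 1144 to 1791 CPM over the 6 libraries. Cdh1, which encodes E-cadherin, stood at 494, 503 and 414 CPM against 1099, 1166 and 1257 CPM (-1.32 ± 0.16, adjusted p = 0.000174). The keratin genes of simple epithelia Krt8 (-0.57) and Krt18 (-1.08) and the tight junction gene Cldn4 (-1.78) were lower as well, while Krt19 was higher (1.06 ± 0.18, adjusted p = 0.00115). The call of Krt8 was lost without Cas9-GFP library 1 or 3 and without C57BL/6 library 2 or 3 (adjusted p = 0.0563 to 0.116). Wt1 (0.27) and Msln (0.26), the 2 tested of 7 markers of OSE and mesothelium, were not called, with 0 at an unadjusted p under 0.05 in edgeR and 0 by DESeq2.

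**Figure D4:**
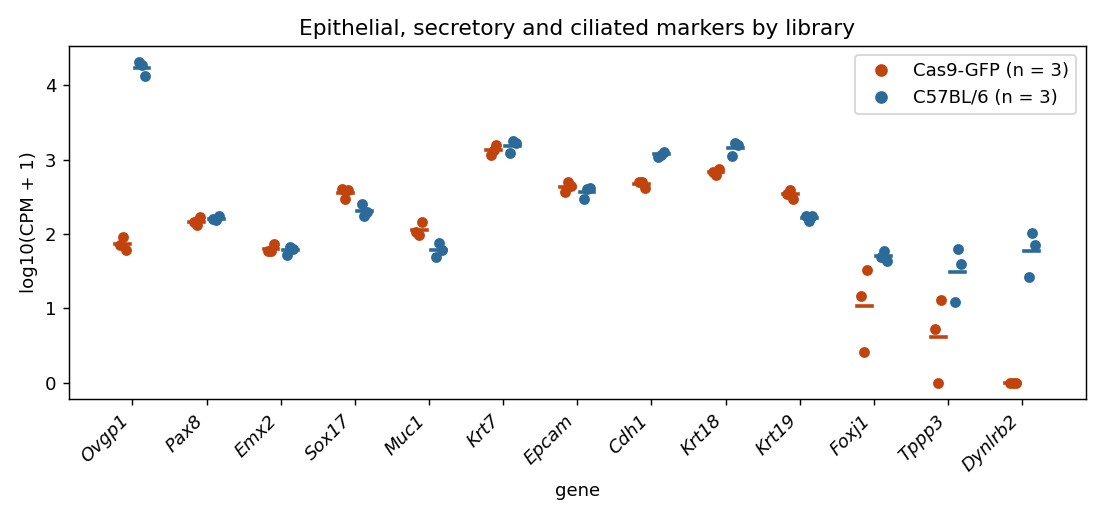
The log10 of CPM + 1 is plotted for each of 13 markers in the 3 Cas9-GFP libraries (red points) and the 3 C57BL/6 libraries (blue points), with a bar at the mean of the plotted values. Pax8, Emx2 and Krt7 overlap between the groups, and Ovgp1 and Dynlrb2 are far lower in the Cas9-GFP libraries.

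Markers of other cell types, those of the myeloid list aside, were at or near 0 in both groups. None of the fibroblast, smooth muscle, lymphoid, endothelial, erythroid or granulosa, steroidogenic and oocyte markers passed the filter on low counts, and the summed CPM of each of these lists was at most 1.62 in the Cas9-GFP libraries and 5.98 in the C57BL/6 libraries. Of the myeloid list, Csf1r, the receptor of macrophage colony-stimulating factor, stood at 20.8, 27.5 and 14.7 CPM against 0.854, 1.57 and 1.21 CPM (4.06 ± 0.51, adjusted p = 0.000191), and Cd68 was higher by 2.83 ± 0.69 (adjusted p = 0.01). After thinning to the shallowest library neither held enough reads to be tested, and the call of Cd68 was lost without Cas9-GFP library 1 (adjusted p = 0.066). Of the 6 myeloid genes in the table, 2 were tested, and the leukocyte genes Ptprc, Lyz2 and Tyrobp had no read in the Cas9-GFP libraries. The remaining member held reads there but was not tested. The summed CPM of the list was 36.3 to 42 in the Cas9-GFP libraries and 4.71 to 13.9 in the C57BL/6 libraries.

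The genes with the largest differences were on several chromosomes. Among those with at least 10 CPM over the 6 libraries and no overlap between the groups, the 12 that fell most were Dkk3, BC048546, Dynlrb2, Crisp1, Mmp13, Rtn1, Wfdc18, Atp2b2, 1700091H14Rik, Cybrd1, Rhoj and Snhg11. Dkk3, a secreted protein of the dickkopf family, had no read in the Cas9-GFP libraries and 148, 135 and 164 CPM in the C57BL/6 libraries, which is at least 30.7-fold lower. BC048546 stood at 13.9, 1.62 and 2.94 CPM against 9336, 10947 and 7087 CPM, 1290-fold lower (-10.33 ± 0.46, adjusted p = 1.06e-07). Oviduct tissue was above all Cas9-GFP libraries for 9 of the 12, among them BC048546 at 2209 to 3739 CPM and Dkk3 at 233 to 324 CPM. For the other 3, Crisp1, Mmp13 and 1700091H14Rik, it was at 0 to 2.44 CPM, as low as the Cas9-GFP organoids. Crisp1, Mmp13, Atp2b2, 1700091H14Rik, Cybrd1, Rhoj and Snhg11 had no read in the Cas9-GFP libraries, and their bounds ranged from 5.58-fold for Snhg11 to 11.2-fold for Crisp1. Rtn1, with 1 read in the Cas9-GFP libraries, was 733-fold lower (95% counting interval 131 to 29000).

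The 12 that rose most were Khdc1a, Sectm1b, Capn11, Pigr, Tmprss11g, Nr0b1, Lrp2, Gata6, Ace, Cntnap1, Mrgprb2 and Slc39a4. Khdc1a stood at 183, 115 and 33.3 CPM with no read in the C57BL/6 libraries (at least 46.9-fold higher), and Sectm1b at 54.7, 42 and 63.7 CPM with none (at least 22.7-fold). Gata6, a transcription factor of endoderm and mesoderm derivatives, stood at 58.2, 79.2 and 52 CPM against 2.56, 1.57 and 1.21 CPM (4.99 ± 0.38, adjusted p = 5.83e-06). In wild-type oviduct tissue Gata6 was at 26.9 to 36.8 CPM, and the tissue was below all Cas9-GFP libraries for 11 of these 12 genes and above all C57BL/6 organoid libraries for 7. Slc39a4, a zinc importer, stood at 864, 1257 and 1391 CPM against 59, 22.8 and 57.4 CPM (4.63 ± 0.33, adjusted p = 3.44e-06). Nr0b1, an orphan nuclear receptor gene, stood at 48.6, 21 and 56.9 CPM against 0, 0 and 0.605 CPM. Groups without overlap were a condition for naming these genes, so their separation is no finding of its own. BC048546 had no position in the annotation, and none of the other 23 lies on chromosome 4.

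The immediate early genes, which cells transcribe within minutes of a stimulus such as serum or dissociation, were lower for most members, and 14 of those called lie outside chromosome 4. Of 19 members tested, 15 were called lower in the Cas9-GFP organoids (78.9%, against 13.3% of all genes tested) and 0 higher, with a median log2 fold change of -2.02 against 0 over all genes. DESeq2 called 14 lower and 0 higher, and 16 lower and 0 higher had an unadjusted p under 0.05 in edgeR. Fosb, a subunit of the AP-1 transcription factor, stood at 3.47, 0 and 0.98 CPM against 131, 159 and 151 CPM (-6.3 ± 0.41, adjusted p = 2.1e-06). Jun, a further subunit of AP-1 and a chromosome 4 gene, stood at 132, 53.4 and 43.1 CPM against 1866, 2316 and 2515 CPM (-4.84 ± 0.37, adjusted p = 5.53e-06). Atf3, a stress-induced transcription factor, stood at 10.4, 1.62 and 6.86 CPM against 359, 316 and 505 CPM (-5.79 ± 0.36, adjusted p = 2e-06), and Nr4a1, an orphan nuclear receptor, at 2.6, 1.62 and 3.92 CPM against 92.7, 107 and 126 CPM (-5.2 ± 0.34). For these 4 genes the C57BL/6 libraries were all above the Cas9-GFP libraries. Egr1, Egr2, Ier2, Dusp1, Fos, Junb, Zfp36, Klf6, Myc, Hspa1a and Hspa1b were called lower as well, from -4.48 for Egr2 to -1.05 for Hspa1b, and the near-identical heat shock genes Hspa1a and Hspa1b may share reads. Jund (0.07), Ier3 (-0.03), Klf4 (-0.32) and Klf2 (-1.19) were not called. In wild-type oviduct tissue Fosb was at 1.45 to 6.58 CPM and Atf3 at 11.8 to 28.1 CPM, near the Cas9-GFP organoids, whereas Jun, at 904 to 1299 CPM, was between the Cas9-GFP (47 to 145 CPM) and the C57BL/6 organoids (2082 to 2729 CPM) on the same scale. Of the 15 members called lower, oviduct tissue was below all C57BL/6 organoid libraries for 13, a position it had for 578 of all 1110 genes called lower, and it overlapped the Cas9-GFP libraries for 7, was above them for 4 and below them for 4. In OSE tissue the levels reached 498 to 685 CPM for Fosb and 598 to 1320 CPM for Atf3. How the cultures of each group were handled before lysis was not recorded in the labels, and its part in this difference was not tested.

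Since these genes moved together, the bases before their transcription starts were read. The cAMP response element TGACGTCA, its part TGACG and the CArG box of serum response elements were searched on both strands in the 250 bases before each start (RefSeq, GRCm38.p6), the first of which contains the second. Of the 15 genes called lower, 12 had an entry. TGACG was present in 7 of these 12 (58.3%), in 2 of the 4 members tested and not called, in 32.5% of the genes tested and in 19.8% of all genes with an entry. The CArG box was in 2 of the 12, against 1.42% of the genes tested. The full TGACGTCA was in 1 of the 12 (8.33%), against 3.14% of the genes tested. These shares rest on few genes and were not tested. Windows of 150 bases that end at the start are shown for 4 of the genes called lower that held a match. They read 5′ to 3′ on the strand of the gene, with the matched letters in capitals.
Fosb, chr7:19310046-19310195, minus strand: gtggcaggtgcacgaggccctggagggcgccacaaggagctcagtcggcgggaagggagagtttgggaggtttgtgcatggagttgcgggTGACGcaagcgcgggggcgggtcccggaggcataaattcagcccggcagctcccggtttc
Nr4a1, chr15:101266696-101266845, plus strand: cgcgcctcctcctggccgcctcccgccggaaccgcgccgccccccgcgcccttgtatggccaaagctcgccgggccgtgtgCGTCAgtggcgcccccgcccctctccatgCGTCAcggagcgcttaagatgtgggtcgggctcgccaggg
Zfp36, chr7:28379229-28379378, minus strand: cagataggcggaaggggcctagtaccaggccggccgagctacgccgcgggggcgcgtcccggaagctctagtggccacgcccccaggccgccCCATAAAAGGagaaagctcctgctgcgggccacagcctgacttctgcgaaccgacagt
Dusp1, chr17:26508473-26508622, minus strand: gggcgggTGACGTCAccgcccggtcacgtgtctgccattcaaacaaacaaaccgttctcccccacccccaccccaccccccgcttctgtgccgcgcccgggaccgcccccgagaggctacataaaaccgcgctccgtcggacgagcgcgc
The windows of Fosb and Nr4a1 hold TGACG or its reverse complement, that of Dusp1 the full TGACGTCA, and that of Zfp36 a CArG box. Dusp1, a phosphatase that ends MAP kinase signalling, stood at 9.55, 8.09 and 4.9 CPM against 53, 172 and 187 CPM (-4.16 ± 0.52, adjusted p = 0.000166), and Zfp36, an mRNA decay factor, at 73.8, 50.1 and 51 CPM against 183, 151 and 124 CPM (-1.37 ± 0.23, adjusted p = 0.00117).

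Targets of p53, the tumor suppressor that the study later edited, were lower as a list. Of 22 tested, 12 were called lower (54.5%, against 13.3% of all genes tested) and 0 higher (against 13%), with a median of -1.15, and DESeq2 called 11 lower and 1 higher. At an unadjusted p under 0.05, 14 were lower and 1 was higher. Trp53 itself was not called (47.8, 32.3 and 55.9 against 30.8, 17.3 and 42.3 CPM; 0.6 ± 0.33, adjusted p = 0.201). Cdkn1a, the cell cycle inhibitor p21, stood at 414, 391 and 631 CPM against 397, 549 and 643 CPM (-0.14 ± 0.23), and Mdm2, which degrades p53, differed by -0.59 ± 0.25 (adjusted p = 0.102), so that neither of these direct targets was called. Btg2, which is also an early response gene, stood at 20, 25.9 and 19.6 CPM against 183, 218 and 278 CPM (-3.4 ± 0.25, adjusted p = 3.72e-06). Ccng1 (-1.08), Bax (-1.24), Gdf15 (-2.12), Phlda3 (-1.61) and Plk2 (-2.03) were lower as well, and Trp53inp1 (-2.09) was the 1 called member on chromosome 4. The count of members called lower fell to 6 without Cas9-GFP library 1 and to 4 in the fit of all libraries. Of 12 genes of the DNA break response, Chek2 (1.44) and Rad50 (1.09) were called higher (16.7%, against 13% of all genes tested) and Lig4 (-1.35) lower (8.33%, against 13.3%). Without Cas9-GFP library 1 none of these 3 calls was left. Nf1 (0.31), which is not on that list and was edited in other clones of the study, was not called.

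Hox genes, which set position along the body axis, were lower in the HoxB cluster. Hoxb6 stood at 9.55, 9.7 and 9.8 CPM against 54.7, 38.5 and 31.4 CPM (-2.1 ± 0.33, adjusted p = 0.000847). Hoxb2 (-1.72), Hoxb5 (-1.15), Hoxb7 (-1.37) and Hoxb8 (-2.31) were also called lower, which makes 5 of 8 Hox genes tested (62.5%, against 13.3% of all genes tested) and 0 higher (0 higher also by DESeq2 and at an unadjusted p under 0.05). Hoxb3 (-0.94, adjusted p = 0.0566), Hoxb4 (-0.39) and Hoxd4 (-0.23) were not called. No listed Hox gene of the posterior groups passed the filter on low counts, and the number called lower was 2 in the fit of all libraries and 8 without the filter. In wild-type oviduct tissue Hoxb6 was at 13.2 to 24.4 CPM, between both organoid groups, and the tissue was above all Cas9-GFP libraries for 4 of the 5 members called lower.

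Proliferation genes were higher in part. Mki67, which marks cycling cells, stood at 52.1, 42 and 44.1 CPM against 12.8, 0 and 3.02 CPM (2.91 ± 0.59, adjusted p = 0.00375). Of 20 tested, 7 were called higher (35%, against 13% of all genes tested) and 1 lower (5%, against 13.3%), with a median of 1.12, but replicates decided most of these calls. The number called higher was 1 without C57BL/6 library 2, 2 without C57BL/6 library 3, Cas9-GFP library 1 or Cas9-GFP library 3, and 13 without C57BL/6 library 1. Ccnd1, which encodes cyclin D1, was the member called lower (91.2, 55 and 112 against 352, 465 and 590 CPM; -2.42 ± 0.27, adjusted p = 7.63e-05).

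Secreted defence proteins moved in both directions, with 4 of 12 higher (33.3%, against 13% of all genes tested) and 3 lower (25%, against 13.3%). Pigr, the receptor that carries IgA and IgM across epithelia, stood at 295, 885 and 356 CPM against 2.56, 6.28 and 0 CPM (7.51 ± 0.63, adjusted p = 1.11e-05). The iron-binding lipocalin Lcn2 (0.95), complement C3 (1.44) and the chemokine Cxcl5 (3.55) were higher. Wfdc18, a whey acidic protein family member, stood at 4.34, 4.85 and 0 CPM against 1116, 1122 and 1306 CPM (-8.64 ± 0.4, adjusted p = 1.06e-07), and Wfdc2 (-0.8) and Cxcl1 (-1.94) were lower. The number called lower was 1 without Cas9-GFP library 1 or 2, 2 without C57BL/6 library 2 or 3 and 5 without Cas9-GFP library 3. Of 20 interferon response genes, 3 were lower (15%, near the 13.3% of all genes tested) and 0 higher (8 and 0 at an unadjusted p under 0.05, 3 and 0 by DESeq2). Bst2, an antiviral membrane protein, stood at 39.9, 38.8 and 50 CPM against 412, 300 and 323 CPM (-3 ± 0.21, adjusted p = 3.44e-06), with Ifi44 (-5.08) and Stat2 (-1.34) also lower. The count was 5 without Cas9-GFP library 2 or C57BL/6 library 2, 7, with 2 higher, without Cas9-GFP library 3, and 2 without C57BL/6 library 3. Of 6 antigen presentation genes, 2 were lower (33.3%, against 13.3% of all genes tested) and 0 higher (against 13%). B2m, the light chain of MHC class I, was at 65.1, 53.4 and 97.1 CPM against 308, 319 and 437 CPM (-2.28 ± 0.24, adjusted p = 5.9e-05). Tap2 was lower (-0.98, adjusted p = 0.0482, lost without any one of 5 libraries), and H2-K1 (-0.1) was not called.

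Among 11 estrogen response genes, C3, Muc1 and Wnt4 (3.04 ± 0.6) were called higher (27.3%, against 13% of all genes tested) and Greb1 lower (9.09%, against 13.3%). Greb1, an estrogen receptor cofactor, stood at 25.2, 30.7 and 4.9 CPM against 304, 217 and 132 CPM (-3.49 ± 0.45, adjusted p = 0.000237). Of 4 genes of the Notch pathway tested, 1 was higher (25%, against 13% of all genes tested) and 3 were lower (75%, against 13.3%). The receptor gene Notch3 was higher (2.06 ± 0.38), and the receptor gene Notch2 (-1.19), the ligand gene Jag1 (-2.31) and the target gene Hes1 (-1.12) were lower. None of the 4 Wnt response genes tested was called by edgeR or DESeq2 (0 at an unadjusted p under 0.05), but 3 were called higher without C57BL/6 library 1, 2 without Cas9-GFP library 2 and 1 without C57BL/6 library 2 or 3. A list written for stratified epithelium had 5 genes tested, and its members, Krt20 among them, are not all particular to that tissue. Of these, 4 were higher (80%, against 13% of all genes tested) and 1 was lower (20%, against 13.3%). Krt15 (3.42), Krt4 (3.23), Sprr1a (1.61) and Sprr2f (1.65) were higher and Krt20 (-1) lower. Krt15 stood at 106, 202 and 71.6 CPM against 20.5, 5.5 and 6.05 CPM. The number called higher was 2 without C57BL/6 library 2 or 3, and in the fit of all 27 libraries 0 were called higher and 0 lower. Krt20 was called with all 6 libraries, and among the fits that left out 1 of them only without C57BL/6 library 1.

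**Figure D5:**
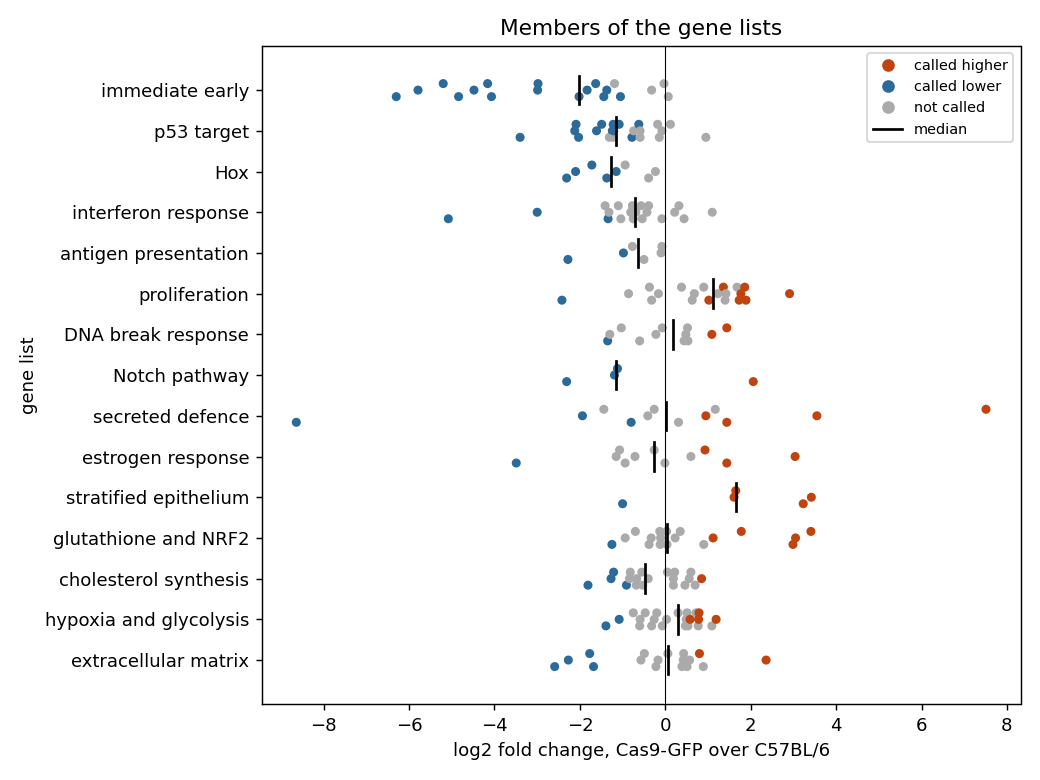
The log2 fold change of Cas9-GFP over C57BL/6 organoids is plotted for each member tested of 15 gene lists, coloured by its call, with a black bar at the median of the list. The immediate early, p53 target and Hox lists have medians of -2.02, -1.15 and -1.26, and no member of these 3 lists was called higher.

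Metabolic and matrix lists had a few called members each, and the shares called higher and lower are to be read against 13% and 13.3% of all genes tested. Of 18 glutathione and NRF2 genes, 5 were higher (27.8%) and 1 was lower (5.56%), among them Gsta3, a glutathione transferase (278, 348 and 172 against 17.9, 21.2 and 35.7 CPM; 3.41 ± 0.32, adjusted p = 2.3e-05). Of 23 hypoxia and glycolysis genes, 4 were higher (17.4%) and 2 lower (8.7%), both near the shares of all genes. Hk1, Aldoa, Pkm and Ldha were higher by 0.58 to 1.19 and the chromosome 4 gene Slc2a1 and Pfkfb3 fell by 1.39 and 1.08 on the log2 scale. Both numbers depended on single libraries, with 2 higher without Cas9-GFP library 2 or C57BL/6 library 3, and 0 lower without Cas9-GFP library 3 or C57BL/6 library 3. Of 20 cholesterol synthesis genes, 1 was higher (5%) and 4 were lower (20%, with 1 lower without Cas9-GFP library 1, 2 without Cas9-GFP library 2 or C57BL/6 library 1). Of 13 amino acid and ER stress genes, Shmt2 (0.96) and Slc7a11 (3.05) were higher (15.4%) and 0 lower (3 at an unadjusted p under 0.05 and 0 by DESeq2). Of 17 extracellular matrix genes, 2 were higher (11.8%) and 4 lower (23.5%). Mmp7 (2.36) and Mmp14 (0.8) were higher, and Fn1 (-2.59), Thbs1 (-1.68), Col18a1 (-2.27) and the chromosome 4 gene Hspg2 (-1.77) were lower. Cyfip2, a gene that differs between C57BL/6 substrains, stood at 43.4, 35.6 and 46.1 CPM against 3.84, 1.57 and 1.81 CPM (3.97 ± 0.39, adjusted p = 3.46e-05), and Nnt, another such gene, was not called (0.32, adjusted p = 0.376). In wild-type oviduct tissue Cyfip2 was at 40.3 to 46.1 CPM, as in the Cas9-GFP organoids.

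The most abundant called genes were largely mitochondrial. The ribosomal RNA mt-Rnr2 took 7.21% to 10.1% of the counts in the Cas9-GFP libraries and 13.3% to 16.8% in the C57BL/6 libraries (-0.96 ± 0.21, adjusted p = 0.00624), and mt-Rnr1 was lower by 1.25 ± 0.21. Of 13 mitochondrially encoded mRNAs, 5 were lower (38.5%, against 13.3% of all genes tested) and 1 was higher (7.69%, against 13%), with a median of -0.01. Malat1, a nuclear non-coding RNA, rose from 3929, 3589 and 3523 CPM in the C57BL/6 libraries to 11260, 9498 and 13681 CPM in the Cas9-GFP libraries (1.64 ± 0.18, adjusted p = 8.36e-05), followed by Lcn2, Pkm, Bcam (1.12) and C3. Of 75 genes of the cytosolic ribosome, 20 were lower (26.7%, against 13.3% of all genes tested) and 4 higher (5.33%, against 13%), and all 5 of them on chromosome 4 were among the lower. Of 82 nuclear genes of oxidative phosphorylation, 24 were lower (29.3%) and 2 higher (2.44%), 3 of the lower ones on chromosome 4. These 2 lists were added after values were seen, and many of their members have processed pseudogenes that may share reads. The number of ribosomal genes called lower was 12 without Cas9-GFP library 1, and that of oxidative phosphorylation genes 16. Called genes also differed with transcript length. Of the genes with under 1 kb of exons, 13% were higher and 23.7% lower, and of those with over 8 kb, 16.2% were higher and 7.25% lower. The part of length, depth and RNA quality in these lists was not tested.

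Levels outside the comparison were read in 6 libraries from Cas9-GFP mice (TBP clones 2 and 3 and the 4 tumor-derived organoids) and 5 labelled wild-type with no mention of Cas9-GFP (3 of oviduct tissue and 2 of OSE organoids). OSE organoid library 2 is the one with the low chromosome 4 level. Of the genes called higher in the Cas9-GFP organoids, 236 of 1079 (21.9%) were higher in all 6 libraries than in all 5, against 6.58% of all genes tested. Of the genes called lower, 153 of 1110 (13.8%) were lower in all 6, against 5.06%, and 41 of the 153 lie on chromosome 4. Without OSE organoid library 2, a choice made after seeing the data, the counts were 290 (26.9%, against 9.74%) and 202 (18.2%, against 7.65%), 67 of the latter on chromosome 4. The clones and tumor organoids derive from Cas9-GFP organoids and are edited, and the 5 libraries beside them are of uncultured tissue or of another epithelium. Descent, editing, strain, culture and tissue therefore cannot be told apart there. Cdkn2a stood at 40.2 and 57 CPM in TBP clones 2 and 3 and at 70.8 to 183 CPM in the tumor-derived organoids, against 3.45 to 5.73 CPM in the Cas9-GFP organoids and 104 to 137 CPM in the C57BL/6 organoids on the same scale.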

How the data were processed

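RNA of 3 Cas9-GFP and 3 C57BL/6 oviductal organoid libraries was compared. The authors sequenced it by CEL-Seq2 and mapped reads with BWA on GRCm38. The deposited values are raw counts of uniquely mapped reads for each gene, without correction for unique molecular identifiers, so duplicate reads of a molecule may be counted. Intervals cover only counting error, with each read taken as independent, and may be too narrow. Per the submitters' processing notes DESeq2 1.18.0 was used. The spike-in entry was left out, which leaves 18305 genes. Columns were assigned to groups by their names.

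Groups were compared with edgeR 4.0.16 (quasi-likelihood test, TMM, filterByExpr) in R 4.3.3, with Benjamini-Hochberg adjusted p-values and a threshold of 0.05. The test recovered 98% of genes changed 4-fold and 31.6% of those changed 2-fold on counts simulated for this comparison over 7949 genes. CPM use TMM-scaled library sizes, over the 6 libraries or, for levels in other groups, over all 27. A fold against a group with no read used a floor of 3 reads in the shallowest library of that group. Symbols were matched to GENCODE vM21, 17121 directly and 982 by an older symbol, and 203 had no match. Same-numbered libraries had correlations of 0.06, 0.11 and 0.05 of their deviations from the group means, so the numbers were not taken as pairs.

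Genes named were list members, the 12 with the largest change and the 5 with the highest level per direction, and called genes within 20 Mb of Gt(ROSA)26Sor. Lists and the comparison were chosen with earlier results of these data known. The chromosome 4 summaries, the mitochondrial mRNA, ribosomal and oxidative phosphorylation lists, thinning and TMM without chromosome 4 were added after seeing the data. DESeq2 1.42.0 was an alternative.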

Additional observations from a re-analysis of the deposited data

Results flagged for a closer look

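The eGFP entry of the count table, which the comparison does not use, held 3 reads in tumor-derived organoid library 4 and 0 reads in each of the other 26 libraries, the Cas9-GFP and C57BL/6 organoids included.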

How the results depend on the processing

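The fit of all 27 libraries, whose groups share one estimate of spread, called 373 genes higher and 550 lower (923 in all), 15 list members higher and 33 lower (48 in all), and 159 genes of chromosome 4 lower. Requiring a log2 fold change beyond 1 left 714 genes higher. Leaving out each library in turn gave 676 to 1103 genes higher, 774 to 1229 lower and 1450 to 2332 in all, lowest without Cas9-GFP library 1, and 175 to 242 genes of chromosome 4 lower. DESeq2 called 876 genes higher and 940 lower, RLE size factors 1072 and 1113, no filter 1306 and 1558, thinning to the shallowest library 796 and 831 (160 lower on chromosome 4), and TMM without chromosome 4 954 and 1231. The fit with a replicate block called 1094 and 1118, of which 1008 and 1038 were shared with the report, and Gt(ROSA)26Sor lost its call (adjusted p = 0.054). The median log2 fold change of chromosome 4 genes lay between -1 and -0.89 in all of these settings. Of 186 named genes called, 73 kept their call in every setting that tested them and 0 turned direction. The ratio of mean distances between groups to those within was 1.77, 1.85 on the regularized log and 2.65 over the 500 most variable genes. The Cas9-GFP libraries, at 600579 to 1038141 counts, limit what can be read of genes below about 5 CPM.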
